A study of Mus musculus with 15 samples.

Results

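The genes described here are 9 enzymes of serine synthesis and folate-linked one-carbon metabolism, Phgdh, Psat1, Psph, Shmt1, Shmt2, Mthfd1, Mthfd2, Mthfd1l and Aldh1l2. They were chosen by name as pathway members, with earlier results of these data known. All 9 were found among 22180 genes with a probe set annotated to exactly 1 gene symbol. Each had a single such probe set, so no other probe set of a member could agree or disagree with it. The data are 15 Affymetrix arrays, all of RNA from melan-Ink4a-Arf-1 (melan-a), an immortalized melanocyte line from Cdkn2a tm1RDp/tm1RDp mice. All cultures grew at 37 °C in medium with 10% fetal bovine serum, 200 nM 12-O-tetradecanoylphorbol 13-acetate and 200 pM cholera toxin. There were 5 groups of 3 arrays, described in the series as biological triplicates, and values per array are given below in the order a, b, c. The normoxia group was kept at about 21% oxygen and 10% CO2, and the 4 hypoxic groups spent 24 h at 1% oxygen, 5% CO2 and 94% nitrogen. Oxygen and CO2 therefore changed together and their effects cannot be told apart. The labels call one hypoxic group control (here the hypoxia control) and another negative control, while Si1 and Si6 were transfected with an siRNA against Hif1a 24 h before hypoxia. The labels do not say what the negative control received, all arrays come from 1 line, and its response cannot stand for melanocytes in general.

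Cells make serine from the glycolytic intermediate phosphoglycerate in 3 steps. Phgdh oxidises it, Psat1 adds an amino group taken from glutamate, and Psph removes the phosphate. Serine hydroxymethyltransferase, mitochondrial (Shmt2) or cytosolic (Shmt1), then moves a carbon from serine to tetrahydrofolate and leaves glycine. In mitochondria Mthfd2 oxidises the folate-bound carbon and Mthfd1l releases it as formate, which leaves for the cytosol, where the trifunctional enzyme Mthfd1 loads it back onto folate for purine and thymidylate synthesis. Aldh1l2 instead burns the mitochondrial formyl group to CO2 and yields NADPH. Several of these genes, Psat1, Shmt2 and Mthfd2 among them, are known targets of the amino acid stress factor ATF4.

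Hif1a, the siRNA target, encodes the oxygen-sensitive part of the hypoxia-inducible factor, and spanned 10.56 to 10.68 log2 units in the negative control, 8.59 to 8.75 in Si1 and 8.90 to 8.98 in Si6. Hif1a thus fell by 1.98 on the log2 scale with Si1 and fell by 1.70 with Si6, while a dimmer second probe set at a mean of 5.40 did not follow (-0.01 and -0.07). Array medians lay between 6.52 and 6.61, and arrays of one group correlated at 0.9931 or more. Of 8 melanocyte markers, Tyrp1, Dct, Pmel, Mlana, Sox10, Mitf and Tyr had means of 10.43 to 13.06, and Kit 8.46. The mean of the 8 moved between groups. It ran from 11.83 to 11.89 on the normoxia arrays, 11.65 to 11.69 in the hypoxia control and 11.08 to 11.17 in the negative control. In Si1 it ran from 10.82 to 10.86, and in Si6 from 11.39 to 11.48. Between the hypoxic controls, 7 of the 8 were lower and 0 higher in the negative control, where 7.51% of all genes were lower (limma, adjusted p under 0.05). Markers of fibroblasts, keratinocytes, leukocytes and endothelium had lower list means on every array, from 5.80 to 6.49. The fibroblast gene Col1a1 was an exception at 8.56, with group means from 7.96 to 9.35, while the fibroblast genes Dcn and Lum were at 5.24 and 4.35. The leukocyte list was highest in Si1 (6.37 to 6.38 against 5.95 to 6.09 in the negative control), mostly through Cd68, a lysosomal protein gene. In that comparison 2 of the 4 leukocyte genes were higher and 0 lower, where 20.2% of all genes were higher. The defining leukocyte gene Ptprc stayed between group means of 4.43 and 4.58. In bulk RNA, fewer cells of a type and less RNA per cell cannot be told apart, and the part of these marker shifts in the results was not tested.

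Promoters of 8 of the 9 genes, in 9 windows because Psat1 has more than 1 annotated start, were taken from RefSeq (GRCm38.p6). Aldh1l2 had no window. Each window of 300 bases runs from 250 before to 50 after a start site, and both strands were searched. The core of the C/EBP-ATF response element, TGATGNAA, was in 0 of the 9 windows, against 3.97% of all 32851 windows. The E-box CACGTG was also in 0 of 9, against 7.15%. The cores of the hypoxia response element, ACGTG (which lies inside CACGTG) and GCGTG, were in 3 and 8 of 9 windows, against 19.6% and 32.4% of all windows. These letter matches describe the windows and say nothing of binding, here or elsewhere in the genes. Windows are shown for Mthfd2 (chr6:83317555-83317854, minus strand) and Shmt2 (chr10:127522395-127522694, minus strand), the members with the largest siRNA rises, and for Mthfd1l (chr10:3972825-3973124, plus strand), which moved the opposite way. Capitals mark ACGTG and GCGTG on either strand, of which Mthfd2 has 0, Shmt2 1 and Mthfd1l 3. Among windows not shown, that of Psph and the second of Psat1 each held 1 ACGTG and 2 GCGTG, and both genes rose with the siRNAs. The remaining windows held fewer. A relation of these counts to the direction of change was not tested.
Mthfd2: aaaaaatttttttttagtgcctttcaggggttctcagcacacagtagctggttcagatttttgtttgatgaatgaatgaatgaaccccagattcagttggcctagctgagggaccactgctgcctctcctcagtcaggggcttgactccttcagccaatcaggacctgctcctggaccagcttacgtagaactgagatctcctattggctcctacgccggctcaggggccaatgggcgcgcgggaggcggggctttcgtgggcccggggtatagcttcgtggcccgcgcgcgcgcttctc
Shmt2: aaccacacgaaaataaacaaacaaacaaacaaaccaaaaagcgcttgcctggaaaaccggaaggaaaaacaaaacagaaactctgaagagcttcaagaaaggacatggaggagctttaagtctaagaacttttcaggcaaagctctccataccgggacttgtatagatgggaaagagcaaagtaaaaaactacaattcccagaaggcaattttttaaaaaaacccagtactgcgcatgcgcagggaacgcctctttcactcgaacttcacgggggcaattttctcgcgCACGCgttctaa
Mthfd1l: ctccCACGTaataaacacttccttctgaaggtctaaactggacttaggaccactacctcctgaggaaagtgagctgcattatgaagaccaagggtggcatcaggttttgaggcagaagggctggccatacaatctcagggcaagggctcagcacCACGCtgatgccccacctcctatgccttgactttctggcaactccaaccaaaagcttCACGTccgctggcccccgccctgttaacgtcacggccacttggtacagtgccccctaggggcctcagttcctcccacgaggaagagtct

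Across the 5 groups the 9 genes did not move as one. Psat1, Psph, Shmt1, Shmt2, Mthfd1 and Mthfd2 rose with both Hif1a siRNAs, both measured against the negative control. In that control, itself hypoxic, Shmt2 and Mthfd1 were below normoxia, while Psat1, Psph, Shmt1 and Mthfd2 did not pass the test. In the hypoxia control all of the 6 except Psph had fallen, Psat1 only narrowly. Mthfd1l and Aldh1l2, which act on the mitochondrial formyl group, fell with both siRNAs. Aldh1l2 had risen in both hypoxic controls, and Mthfd1l in the hypoxia control but not past the test in the negative control. Phgdh, the entry step of serine synthesis, passed the test in 0 of 8 comparisons.

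**Figure D1:**
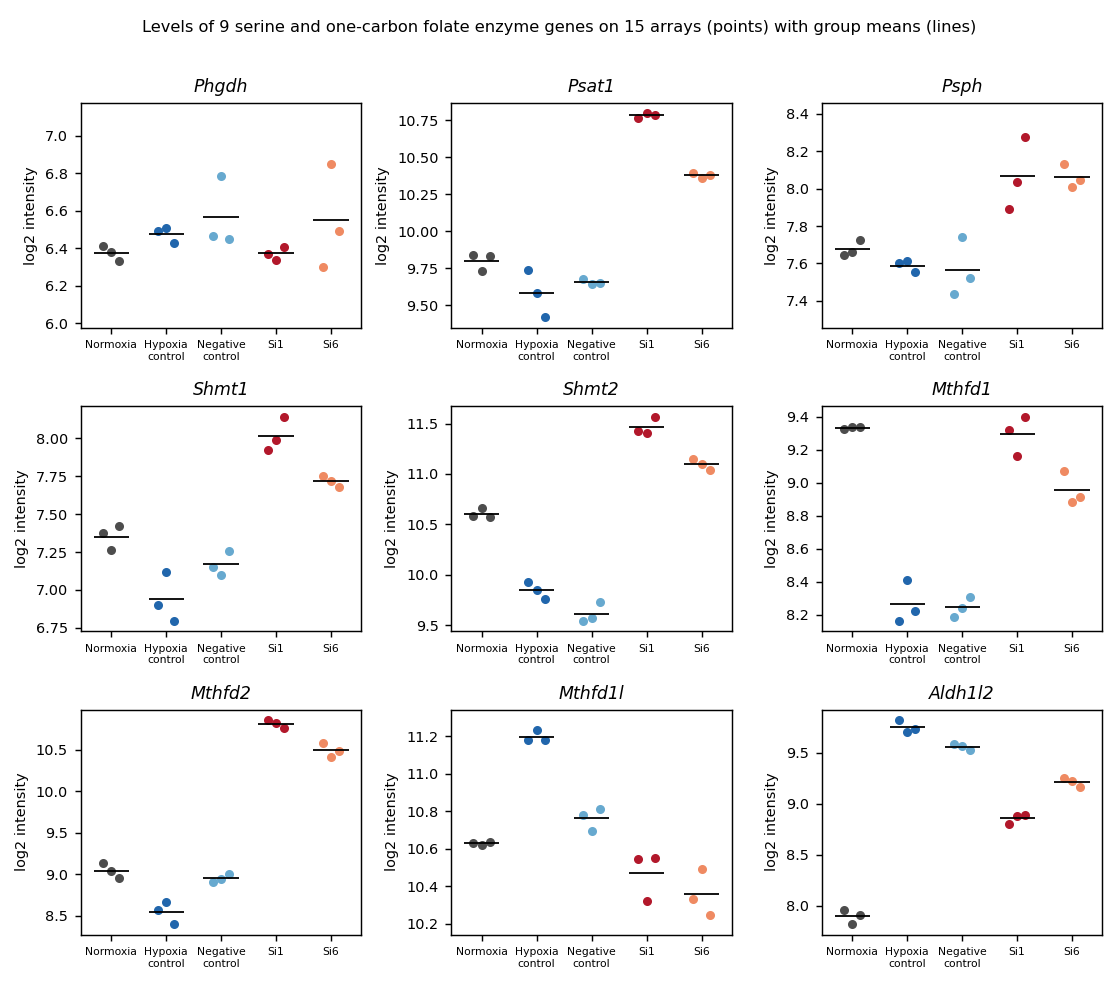
Log2 intensity (vertical axes, each with its own range) of the 9 genes on each of the 15 arrays, by group; points are arrays and lines are means of 3. The Si1 and Si6 points of Psat1, Shmt1, Shmt2 and Mthfd2 lie above all other points, whereas Aldh1l2 is lowest in normoxia and Mthfd1l is highest in the hypoxia control.

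The first comparison asks what low oxygen does to these genes. In the hypoxia control against normoxia, 2 of 9 members rose and 5 fell, where 9.87% of all genes rose and 11.2% fell (limma, adjusted p under 0.05). In either direction 21.0% of all genes were called. The groups did not overlap for 8 of 9 members, against 35.0% of all genes. The members' median log2 fold change was -0.22, and that of all genes -0.002. The negative control, also hypoxic, gave fewer calls against normoxia, with 1 member higher and 2 lower, where 14.6% of all genes were higher and 15.7% lower, 30.3% in all. There the groups did not overlap for 7 members, against 39.8% of all genes. Both comparisons use the same normoxia arrays.

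In the serine synthesis branch, Phgdh passed no test. Its probe set was dim, with a mean of 6.47 against list means of 5.80 to 6.49 for markers of other cell types, and a dim probe set can understate a change. Its arrays read 6.41, 6.38 and 6.33 in normoxia, 6.49, 6.51 and 6.43 in the hypoxia control and 6.46, 6.78 and 6.45 in the negative control. With Si1 they read 6.37, 6.34 and 6.41, and with Si6 6.30, 6.85 and 6.49. One array each of the negative control and Si6 stood above the others. The span of the 5 group means was 0.19, and no neighbours in the order of group means passed the test. Against normoxia the hypoxia control differed by 0.10 ± 0.11 (± is the standard error throughout for fold changes, 3 arrays per group), with a 95% confidence interval from -0.13 to 0.34. Si1 differed from the negative control by -0.19 (interval -0.43 to 0.04) and Si6 by -0.02 (-0.25 to 0.22). These Phgdh differences rested on single arrays, as they were -0.09 and 0.09 without negative control array b, and that of Si6 ran from -0.17 to 0.10 over all alternatives. Without Si6 array a, Phgdh was higher in Si6 than in normoxia by 0.30 (limma adjusted p = 0.047), against 0.18 with all arrays and 0.03 without Si6 array b.

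Psat1, the aminotransferase, read 9.84, 9.73 and 9.83 in normoxia, 9.74, 9.58 and 9.42 in the hypoxia control and 9.68, 9.64 and 9.65 in the negative control. In Si1 it read 10.76, 10.80 and 10.78, and in Si6 10.39, 10.36 and 10.38. Both siRNA groups stood clear of all other arrays and of each other. Psat1 rose by 1.13 ± 0.07 with Si1 (adjusted p = 2.7e-09) and by 0.72 ± 0.07 with Si6 (adjusted p = 6.6e-07), a 2.18-fold and a 1.65-fold rise. Its fall in the hypoxia control was small, at -0.22 ± 0.07 (adjusted p = 0.025), the only call of that comparison with overlapping arrays. The call was lost without normoxia array a or c (adjusted p = 0.078 and 0.08), or without hypoxia control array b or c (0.062 and 0.13), and the change was -0.14 without the last of these. In the negative control no difference from normoxia was detectable (-0.14 ± 0.07, adjusted p = 0.12).

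Psph, the phosphatase that releases serine, ran from 7.64 to 7.72 in normoxia, 7.55 to 7.61 in the hypoxia control and 7.44 to 7.74 in the negative control. The siRNA arrays ran from 7.89 to 8.28 in Si1 and 8.01 to 8.13 in Si6, above all of the others. Psph rose by 0.50 ± 0.09 with Si1 (adjusted p = 2.9e-04) and by 0.49 ± 0.09 with Si6 (adjusted p = 4.5e-04). The siRNAs differed by 0.01, with an interval from -0.18 to 0.20. Low oxygen gave -0.09 ± 0.09 in the hypoxia control and -0.11 ± 0.09 in the negative control, neither past the test.

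Of the serine hydroxymethyltransferases, mitochondrial Shmt2 changed most. It read 10.58, 10.66 and 10.58 in normoxia, 9.93, 9.85 and 9.76 in the hypoxia control and 9.54, 9.57 and 9.73 in the negative control. In Si1 it read 11.42, 11.41 and 11.57, and in Si6 11.15, 11.10 and 11.04. No 2 of the 5 groups overlapped, and all neighbours in the order negative control, hypoxia control, normoxia, Si6, Si1 passed the test. Shmt2 fell by 0.76 ± 0.07 in the hypoxia control (adjusted p = 7.3e-07) and fell by 0.99 ± 0.07 in the negative control (adjusted p = 1.6e-08), both against normoxia. It rose 3.61-fold with Si1 (1.85 ± 0.07, adjusted p = 1.6e-11) and 2.79-fold with Si6 (1.48 ± 0.07, adjusted p = 4.2e-10).

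Cytosolic Shmt1 moved the same way by less in low oxygen against normoxia and with the siRNAs. In the negative control against the hypoxia control the signs differed, at -0.23 for Shmt2 and 0.23 for Shmt1, the latter not past the test. The Shmt1 arrays ran from 7.26 to 7.42 in normoxia, 6.80 to 7.12 in the hypoxia control and 7.10 to 7.26 in the negative control. They ran from 7.92 to 8.14 in Si1 and 7.68 to 7.75 in Si6. Both siRNA groups lay above all other arrays, and the 2 hypoxic controls overlapped. Shmt1 fell by 0.42 ± 0.08 in the hypoxia control (adjusted p = 0.0014), while the negative control, at -0.18 ± 0.08 against normoxia, did not pass (adjusted p = 0.11). It rose by 0.85 ± 0.08 with Si1 (adjusted p = 5.1e-07) and by 0.55 ± 0.08 with Si6 (adjusted p = 7.7e-05).

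Mthfd2, the mitochondrial dehydrogenase and cyclohydrolase, had the widest range of the 9, with group means spanning 2.28 log2 units. It read 9.13, 9.03 and 8.95 in normoxia, 8.56, 8.66 and 8.40 in the hypoxia control and 8.91, 8.95 and 9.01 in the negative control. In Si1 it read 10.86, 10.82 and 10.77, and in Si6 10.58, 10.42 and 10.49. The siRNA arrays were far above the rest, and the negative control overlapped normoxia. Mthfd2 rose 3.63-fold with Si1 (1.86 ± 0.07, adjusted p = 3.3e-11) and 2.91-fold with Si6 (1.54 ± 0.07, adjusted p = 5.5e-10). It fell by 0.50 ± 0.07 in the hypoxia control (adjusted p = 9.6e-05), but in the negative control it was at -0.08 ± 0.07 (adjusted p = 0.44). Its promoter window, printed above, held none of the 4 motifs.

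Mthfd1, the cytosolic trifunctional enzyme, had the largest fall in low oxygen among the 9. It read 9.33, 9.34 and 9.34 in normoxia, 8.16, 8.41 and 8.22 in the hypoxia control and 8.19, 8.24 and 8.31 in the negative control. In Si1 it read 9.32, 9.16 and 9.40, and in Si6 9.07, 8.89 and 8.91. The 2 hypoxic controls overlapped each other and lay below all other arrays, while Si1 overlapped normoxia. Mthfd1 fell by 1.07 ± 0.08 in the hypoxia control (adjusted p = 8.1e-08) and fell by 1.09 ± 0.08 in the negative control (adjusted p = 2.2e-08). It rose by 1.05 ± 0.08 with Si1 (adjusted p = 2.4e-08) and by 0.71 ± 0.08 with Si6 (adjusted p = 3.0e-06).

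Mthfd1l, the mitochondrial formate-releasing synthetase, rose in the hypoxia control, while its difference from normoxia in the negative control did not pass the test. It read 10.63, 10.62 and 10.64 in normoxia, 11.18, 11.24 and 11.18 in the hypoxia control and 10.78, 10.69 and 10.81 in the negative control. In Si1 it read 10.54, 10.32 and 10.55, and in Si6 10.33, 10.49 and 10.25. The hypoxia control stood above all other arrays, and both siRNA groups lay below normoxia. The rise was 0.57 ± 0.07 in the hypoxia control (adjusted p = 2.5e-05), against 0.13 ± 0.07 in the negative control (adjusted p = 0.19), and the 2 hypoxic controls differed by -0.44 ± 0.07 (adjusted p = 4.4e-04). Mthfd1l fell by 0.29 ± 0.07 with Si1 (adjusted p = 0.0038) and fell by 0.40 ± 0.07 with Si6 (adjusted p = 3.5e-04). With the hypoxia control in place of the negative control these falls were larger, at -0.73 and -0.84. The siRNAs differed by 0.11, with an interval from -0.04 to 0.26.

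Aldh1l2, the mitochondrial formyl-tetrahydrofolate dehydrogenase, gave the largest low oxygen response of the 9. It read 7.96, 7.82 and 7.91 in normoxia, 9.82, 9.71 and 9.73 in the hypoxia control and 9.59, 9.57 and 9.53 in the negative control. In Si1 it read 8.80, 8.88 and 8.89, and in Si6 9.26, 9.23 and 9.17. No 2 groups overlapped, and the order was normoxia, Si1, Si6, negative control, hypoxia control, with every neighbouring pair past the test. Aldh1l2 rose 3.63-fold in the hypoxia control (1.86 ± 0.05, adjusted p = 2.3e-12) and 3.18-fold in the negative control (1.67 ± 0.05, adjusted p = 6.5e-12). It fell by 0.70 ± 0.05 with Si1 (adjusted p = 5.0e-08) and fell by 0.34 ± 0.05 with Si6 (adjusted p = 1.4e-04), or by -0.54 in Si6 with the hypoxia control as the reference. Both siRNA groups remained above normoxia, by 0.96 ± 0.05 in Si1 (adjusted p = 1.1e-09) and 1.32 ± 0.05 in Si6 (adjusted p = 2.1e-10).

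**Figure D2:**
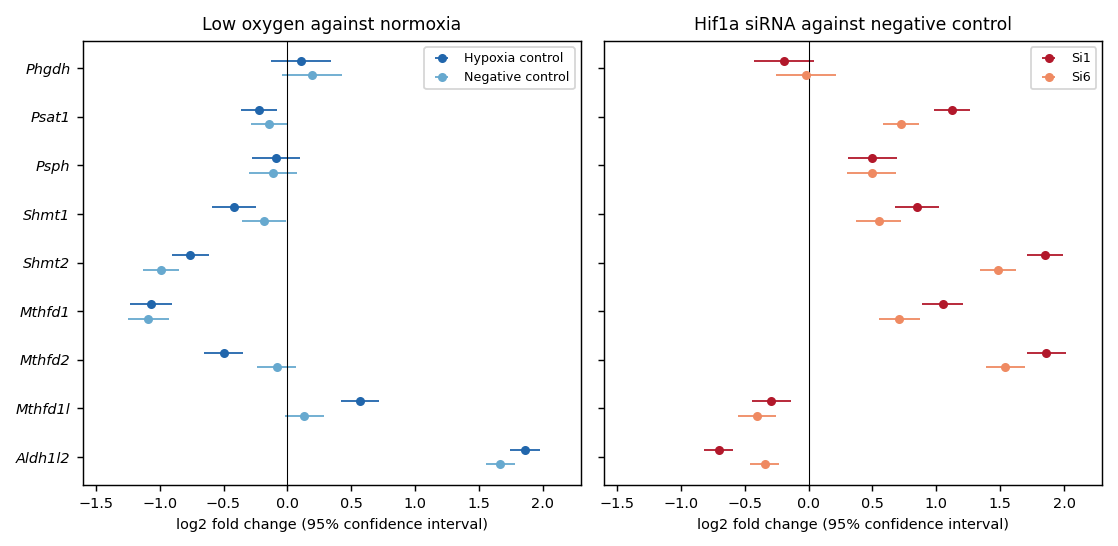
Log2 fold changes (horizontal axes) of the 9 genes with 95% confidence intervals, at left for each hypoxic control against normoxia and at right for each Hif1a siRNA against the negative control, 3 arrays per group. Shmt2, Mthfd1 and Aldh1l2 passed the test (limma, adjusted p under 0.05) in all 4 comparisons, though Aldh1l2 with Si6 was only at -0.34. Aldh1l2 lies on the opposite side of 0 from Shmt2 and Mthfd1 in each panel.

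The second question is which genes differ between the Hif1a siRNA groups and the negative control under low oxygen. The labels do not say what that control received, and no siRNA group was kept in normoxia. An effect of transfection and an effect of less Hif1a therefore cannot be told apart here. Against the negative control, 6 of 9 members rose and 2 fell with Si1, where 20.2% of all genes rose and 14.8% fell, 34.9% in all, and the groups did not overlap for 9 members, against 43.4% of all genes. The same counts were found with Si6, where 17.0% of all genes rose and 11.9% fell, 28.9% in all, and the groups did not overlap for 8 members, against 39.4% of all genes. The members' median was 0.85 with Si1 and 0.55 with Si6, and that of all genes -0.01 in each. Both comparisons share the negative control arrays.

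Against normoxia, the siRNA groups did not simply return to the starting level. With Si1, 6 members were higher and 0 lower than in normoxia, where 21.7% of all genes were higher and 17.4% lower, 39.1% in all. The groups did not overlap for 7 members, against 45.9% of all genes. With Si6, 6 were higher and 2 lower, where 17.0% were higher and 13.1% lower, 30.2% in all. The groups did not overlap for 8 members, against 39.9% of all genes. Mthfd2 was above normoxia by 1.78 ± 0.07 in Si1 and by 1.46 ± 0.07 in Si6, Psat1 by 0.98 ± 0.07 and 0.58 ± 0.07, and Shmt2 by 0.86 ± 0.07 and 0.49 ± 0.07. Shmt1 was above it by 0.67 ± 0.08 and 0.36 ± 0.08, and Psph by 0.39 ± 0.09 and 0.38 ± 0.09. The adjusted p of these 10 values ran from 2.8e-11 for Mthfd2 in Si1 to 0.0033 for Psph in Si6. Mthfd1 was the exception among the genes that rose with the siRNAs, at -0.04 ± 0.08 in Si1 (interval -0.20 to 0.12) and -0.38 ± 0.08 in Si6 (adjusted p = 0.0011). Mthfd1l was below normoxia in Si6 (-0.27 ± 0.07, adjusted p = 0.0075) and at -0.16 ± 0.07 in Si1 (adjusted p = 0.094). Without Si1 array b the Mthfd1l value in Si1 was -0.08 (adjusted p = 0.39).

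**Figure D3:**
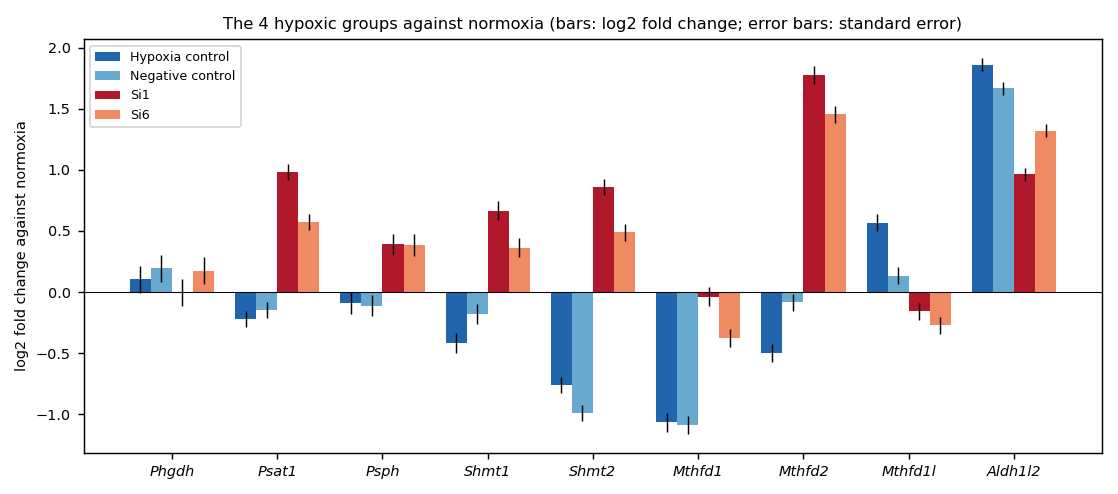
Log2 fold change against normoxia (vertical axis) of the 9 genes in the 4 hypoxic groups, 3 arrays each; bars are fold changes and error bars standard errors. Mthfd2 stands at -0.50 and -0.08 in the hypoxic controls but at 1.78 and 1.46 in Si1 and Si6, whereas Mthfd1 stays at or below 0 in all 4 groups and Aldh1l2 above 0 in all 4.

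The siRNAs differed from each other in 6 of 9 members, 5 higher and 1 lower in Si1, where 14.5% of all genes were higher and 13.4% lower, 27.9% in all. The groups did not overlap for those 6, against 37.6% of all genes. Psat1 was higher in Si1 by 0.41 ± 0.07 (adjusted p = 2.0e-04), Shmt2 by 0.37 ± 0.07 (adjusted p = 4.7e-04), Mthfd1 by 0.34 ± 0.08 (adjusted p = 0.0027), Mthfd2 by 0.32 ± 0.07 (adjusted p = 0.0026) and Shmt1 by 0.30 ± 0.08 (adjusted p = 0.01). Aldh1l2 was lower in Si1, by -0.36 ± 0.05 (adjusted p = 9.4e-05). In all 6 the group farther from the negative control was Si1. Of the members not called, Phgdh was at -0.19 with Si1 and -0.02 with Si6 against that control. Psph was at 0.50 and 0.49, and Mthfd1l at -0.29 and -0.40, farther with Si6. Hif1a was lower in Si1 than in Si6, by -0.28 ± 0.06 (limma adjusted p = 0.0012). A relation of this to the differences between the siRNAs was not tested. The Shmt1 difference was 0.24 without Si1 array c, and was no longer called (adjusted p = 0.056).

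The negative control and the hypoxia control, both hypoxic, differed in 4 members, 1 higher and 3 lower in the negative control, where 7.80% of all genes were higher and 7.51% lower, 15.3% in all. The groups did not overlap for 4 members, against 31.3% of all genes. Mthfd2 was higher by 0.41 ± 0.07 (adjusted p = 7.3e-04), and Mthfd1l lower, as given above. Shmt2, at -0.23 ± 0.07 (adjusted p = 0.026), and Aldh1l2, at -0.19 ± 0.05 (adjusted p = 0.024), were called only narrowly. The count was 2 without hypoxia control array a or without negative control array b. The Shmt2 call was lost on leaving out any of 4 arrays, a or b of either group, with adjusted p from 0.071 to 0.12. The Aldh1l2 call was lost without hypoxia control array a or c or negative control array b or c (0.051 to 0.11). Shmt1 was at 0.23 ± 0.08 (adjusted p = 0.07), and was called without hypoxia control array b, at 0.32 (adjusted p = 0.013).

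The enzymes of the 2 compartments were also set against each other within each array. The log2 ratio of Shmt2 to Shmt1, set against its normoxia mean, was -0.34 in the hypoxia control and -0.81 in the negative control. It was higher in the siRNA arrays than in the negative control, by 1.00 with Si1 and 0.93 with Si6. The ratio of Mthfd1l to Mthfd1 moved the other way, by 1.64 and 1.22 in the hypoxic controls and by -1.34 and -1.12 with the siRNAs. The ratio of Mthfd2 to Mthfd1 was higher at both steps, by 0.57 and 1.00 and then by 0.81 and 0.83. In all 15 ratio comparisons the groups did not overlap. With 3 arrays against 3, an exact two-sided permutation test cannot go below p = 0.1. With the 6 siRNA arrays against the 3 of the negative control each ratio had p = 0.0119, the smallest this exact permutation test can give. After Benjamini-Hochberg adjustment over the 15 the smallest value these tests could give was 0.0595, so none was able to pass and the ratios are a description.

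**Figure D4:**
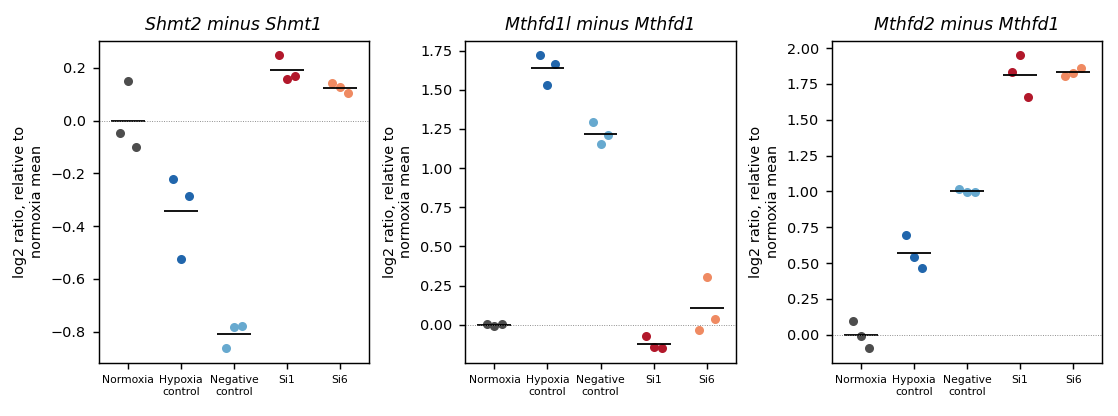
Log2 ratio of 2 probe sets within each array, minus the normoxia mean of that ratio (vertical axes), for Shmt2 over Shmt1, Mthfd1l over Mthfd1 and Mthfd2 over Mthfd1; points are arrays and lines means of 3. The Mthfd1l over Mthfd1 ratio is higher on every array of both hypoxic controls than on any array of normoxia or the siRNA groups, while the Mthfd2 over Mthfd1 ratio is highest with the siRNAs.

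Other genes of the pathway were read from lists chosen for their place in metabolism, also with earlier results of these data known. Of all genes, 9.87% were higher and 11.2% lower in the hypoxia control, and 14.6% and 15.7% in the negative control, both against normoxia. Against the negative control, 20.2% were higher and 14.8% lower with Si1, and 17.0% and 11.9% with Si6. The counts below stand against these shares. Changes in the hypoxia control and changes with the siRNAs therefore have different references. Gart and Atic, which use formyl-folate, are among 11 measured purine synthesis genes. Of the 11, 7 fell and 1 rose in the hypoxia control, and 5 fell and 1 rose in the negative control. With Si1, 7 rose and 0 fell, and with Si6, 6 rose and 1 fell. Gart, which carries out formyl transfer and other steps of the purine ring, was at -0.48 ± 0.06 in the hypoxia control, 1.38 ± 0.06 with Si1 and 0.73 ± 0.06 with Si6, although 2 dimmer Gart probe sets ran only from -0.13 to -0.04 in these 3 comparisons. Atic, the last step of inosine monophosphate synthesis, was at -0.41, 1.09 and 0.44, and Adsl at -0.42, 0.93 and 0.61, all past the test. The list's median was 0.74 with Si1 and 0.44 with Si6, against -0.01 for all genes in each.

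Of 14 measured folate carriers and other folate enzymes, 1 rose and 4 fell in the hypoxia control, 9 rose and 2 fell with Si1, and 5 rose and 1 fell with Si6. The list's median was -0.02, 0.32 and 0.11 in these comparisons, and that of all genes -0.002, -0.01 and -0.01. The shares of all genes called were 21.0%, 34.9% and 28.9%. In the negative control against normoxia 2 were higher and 5 lower, where 30.3% of all genes were called. Thymidylate synthase Tyms uses the folate-bound carbon for DNA synthesis. It was at -0.64 ± 0.08 in the hypoxia control, 0.59 ± 0.08 with Si1 and 0.45 ± 0.08 with Si6, each past the test. In the negative control, the reference of the siRNAs, Tyms was only at -0.26 ± 0.08 against normoxia (limma adjusted p = 0.017). There it was 0.39 ± 0.08 higher than in the hypoxia control (limma adjusted p = 0.0021). The mitochondrial folate carrier Slc25a32 was higher with Si1 (0.45 ± 0.06, adjusted p = 2.3e-05) and at 0.07 ± 0.06 with Si6 (adjusted p = 0.47), and the siRNAs differed by 0.38 ± 0.06 (adjusted p = 1.8e-04). Mthfd2l, the close relative of Mthfd2, was at 0.55 with Si1 (adjusted p = 1.3e-04) and 0.19 with Si6 (adjusted p = 0.14), and the folate importer Slc46a1 at 0.48 and 0.40, both past the test. Glycine cleavage, an alternative mitochondrial source of folate-bound carbon, had 2 of 4 genes higher with each siRNA, Dld and Gcsh. With Si1, 1 was lower, the glycine decarboxylase Gldc (-0.19, limma adjusted p = 0.044). The Gldc probe set was dim, with group means from 5.57 to 5.78, and its Si1 and negative control arrays overlapped.

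Of 12 measured genes of serine and glycine use and transport, 6 rose and 1 fell with Si1, and 7 rose and 0 fell with Si6. Against normoxia, 0 rose and 4 fell in the hypoxia control, and 0 rose and 3 fell in the negative control. The list's median was 0.12 with Si1 and 0.28 with Si6, and that of all genes -0.01 in each. The share of all genes higher was 20.2% and 17.0%. Slc1a4, a transporter of serine and other neutral amino acids, was at -0.003 ± 0.09 in the hypoxia control, 1.88 ± 0.09 with Si1 and 1.43 ± 0.09 with Si6. Cth, which cleaves cystathionine to cysteine, was at 0.07, 1.05 and 0.72, the last 2 past the test. Of 13 ATF4 and stress response genes, 10 rose and 2 fell with each siRNA, and the list's median was 0.60 with Si1 and 0.58 with Si6, against -0.01 for all genes. Against normoxia 13 of the 13 were higher in Si1 and 12 in Si6, with 0 lower in either. Of all genes, 21.7% were higher than normoxia in Si1 and 17.0% in Si6. In each hypoxic control 5 of the 13 were already higher than in normoxia, and 3 were lower. Of all genes, 9.87% were higher in the hypoxia control and 14.6% in the negative control. Atf4 itself was at -0.28 ± 0.06 in the hypoxia control, 0.70 ± 0.06 with Si1 and 0.61 ± 0.06 with Si6, all past the test. The 2 that fell with the siRNAs, Vldlr (-2.72 and -2.56) and Ddit4 (-0.24 and -0.85), are also known targets of hypoxia-inducible factor and had the largest hypoxic rises of the list.

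Likeness over the 15 arrays was used to place the 9 genes beside others. Each gene was compared with the mean of the 9, each centred on its own mean. Among 1506 other genes whose group means spanned at least 1 log2 unit, the highest Pearson correlations were those of Slc1a4 (0.993), asparagine synthetase Asns (0.988) and the cytosolic aminoacyl-tRNA synthetases Tars (0.987), Cars (0.987) and Iars (0.985). The arrays are 5 groups of 3, so these values mostly reflect the group means. Asns, for example, averaged 10.10 under normoxia, with 9.89 for the hypoxia control and 9.88 for the negative control, and reached 11.54 with Si1 and 11.43 with Si6. Within the 9, each gene's correlation with the mean of the other 8 was 0.97 for Psat1, 0.95 for Mthfd2, 0.92 for Shmt1, 0.91 for Psph and 0.85 for Shmt2. It was 0.48 for Mthfd1, and negative for Mthfd1l (-0.76), Aldh1l2 (-0.36) and Phgdh (-0.15). Of the gene pairs, Psat1 and Mthfd2 were closest at 0.97, and Mthfd1 and Aldh1l2 most opposed at -0.85.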

How the data were processed

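The members and gene lists were chosen with earlier results of these data known. The authors deposited log2 intensities of 41345 probe sets on 15 arrays, from 2.60 to 14.90. RMA and Partek are named per the submitters' processing notes, without version or settings. Of filters and any handling of batches, details were not given in the sources used here. RMA usually includes quantile normalization, under which a shift of all genes together cannot be seen. Changes of dim genes, whose values lie near the background, can be compressed. The file holds no detection calls.

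Probe sets were named from the platform annotation. Of them, 23521 had 1 gene symbol (used), 1814 several and 16010 none. For a gene with several, that with the highest mean over all arrays was used, which left 22180 genes.

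One limma 3.58.1 model (R 4.3.3, lmFit and eBayes, no covariates) held a mean for each of the 5 groups over the 15 arrays. Its two-sided p-values were adjusted by Benjamini-Hochberg within each comparison, over all 22180 genes, and called under 0.05. The fit was first tested on simulated data. Nothing in the labels says how cultures were separated beyond biological triplicates, so p-values measure the spread between these arrays. The number of arrays, 3 in a group, limits the precision. Arrays with the same replicate letter did not deviate together (median correlation -0.002 over 30 pairs, over 0.1 in 3), so letters were not treated as pairs.

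Named genes were the 9 members, Hif1a, up to 4 genes with the largest change past the test from each pathway list, and the 5 genes most like the members' mean. Atf4 was named after its values were seen. Alternatives were other scalings, filters, probe set means, variance settings, array weights, smaller fits, the letter as a block, the other hypoxic control and leaving out each array.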

Additional observations from a re-analysis of the deposited data

Results flagged for a closer look

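The effects of the siRNAs Si1 and Si6, each measured against the same negative control, differed in 6 of the 9 genes by the test of the difference itself (limma, Si1 against Si6, Benjamini-Hochberg adjusted over all genes). The effect of Si1 minus that of Si6 was 0.41 for Psat1, 0.30 for Shmt1, 0.37 for Shmt2, 0.34 for Mthfd1, 0.32 for Mthfd2 and -0.36 for Aldh1l2, on the log2 scale. In each of them the 3 Si1 arrays and the 3 Si6 arrays did not overlap. The remaining 3 genes, Phgdh, Psph and Mthfd1l, had differences of -0.18, 0.01 and 0.11 that did not pass. Hif1a differed between the siRNAs by -0.28, and the mean of 8 melanocyte markers ran from 10.82 to 10.86 in Si1 and from 11.39 to 11.48 in Si6. Myc, a regulator of growth, was higher with Si1 (0.31) but lower with Si6 (-0.60), and the difference of 0.91 passed the test (adjusted p = 2.8e-08). Nfe2l2, the antioxidant regulator, had values of -0.82 for Si1 and -0.07 for Si6, whose difference of -0.75 passed too (adjusted p = 3.0e-08). The part of these in the differences between the siRNAs was not tested.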

How the results depend on the processing

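Of 1090 recomputed fold changes of the 9 genes, 1065 kept their side of the threshold, 16 lost a call, 9 gained one, and 0 called values changed sign. Of these, 143 of 143 for Si1 and 143 of 143 for Si6 against the negative control kept it. The number of members called between the negative and hypoxia controls was 4 and fell to 2 with only the compared groups in the fit. It ran from 2 to 4 on leaving out single arrays. In that smaller fit Psat1 in the hypoxia control (adjusted p = 0.12), and Shmt2 (0.07) and Aldh1l2 (0.052) between the hypoxic controls, were no longer called. The other gains were Shmt1 in the negative control against normoxia after quantile normalization (-0.21, adjusted p = 0.049) and Psat1 there after median centring (-0.19, adjusted p = 0.049). Shmt1 between the hypoxic controls was gained without the lowest 25% or 50% of genes (adjusted p = 0.047 and 0.027), where fewer genes are tested. Mthfd1l in Si1 against normoxia was gained under 3 alternatives (adjusted p = 0.029 to 0.044). Where no construction shows the cause, the cause was not tested. With the replicate letter as a block the members called were 7 in the hypoxia control against normoxia and 8 with each siRNA, as without it, and the replicate block changed no other member's call. The 114 recomputed ratio values kept their direction, and their tests could not pass in this design. Phgdh could not be fitted without the lowest 50% of genes, since it lies among them. Dim probe sets near the background limit what could be seen.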

Other observations

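The methionine cycle receives folate-bound carbon as methyl groups. Of its 6 measured genes, 0 passed the test in the hypoxia control against normoxia, where 21.0% of all genes were called. Against the negative control 2 rose and 0 fell with Si1, and 1 rose and 1 fell with Si6. These counts are near the shares of all genes called, 34.9% with Si1 and 28.9% with Si6. Ahcy, which hydrolyses S-adenosylhomocysteine, rose by 0.78 with Si1 and 0.99 with Si6, while a dimmer second Ahcy probe set was at 0.36 and 0.31 and was not called. Of 7 measured regulators of transcription, 2 rose and 3 fell with Si1, and 1 rose and 3 fell with Si6, against 34.9% and 28.9% of all genes called. Those counts include Hif1a, the target of the siRNAs. Epas1, which encodes another oxygen-regulated partner of Arnt, was at -0.76 with Si1 and -0.34 with Si6.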
